A study of Mus musculus with 18 samples.

Results

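The serum amyloid A genes lie side by side on mouse chromosome 7, and in 3T3-L1 adipocytes treated with lipopolysaccharide (LPS) the gene model of Saa3 went from near silence to one of the most abundant transcripts per length. The cluster was taken as all gene models that lie wholly within a 52-kb interval of chromosome 7 around Saa3 on build mm9, which gave 4 of the 27473 gene models counted. They were uc009gyx.1 (53967368 to 53971046, minus strand, 5 exons, 601 bases of exon), uc009gyy.1 (53983369 to 53987913, minus strand, 4 exons, 2033 bases), uc009gyz.1 (53995869 to 53998350, minus strand, 4 exons, 610 bases) and uc009gzb.2 (54007203 to 54009684, plus strand, 4 exons, 610 bases). The definition of the cluster gives uc009gyx.1 as Saa3 and places Saa1, Saa2 and Saa4 in the same interval. The deposited table holds no symbols, and 0 of its identifiers occurred in the gene name tables used here, so the other 3 gene models are reported by identifier. For reference, RefSeq on build GRCm38.p6 lists between Saal1 and Hps5 the genes Saa3, Saa4 and Saa1 on the minus strand and Saa2 on the plus strand, in that order, and lists Saa2 as a synonym of Saa1 and Saa1 as a synonym of Saa2. No gene model was named from this order. The interval was chosen on the LPS response of uc009gyx.1 in these same libraries, so the LPS comparisons of the 4 members are given as descriptions with no test.

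Serum amyloid A proteins are small apolipoproteins that are made in large amounts during the acute phase response and travel on high density lipoprotein. Saa1 and Saa2 are the main acute phase forms made by the liver, Saa4 is a more constitutively made form, and mouse Saa3 is made largely outside the liver, by adipocytes and macrophages among others. LPS is a cell wall component of Gram-negative bacteria that signals through Toll-like receptor 4 to NF-kB and, by a second branch, to the transcription factor IRF3. Factors of the C/EBP and NF-kB families are known regulators of acute phase promoters.

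The cells were 3T3-L1, a mouse fibroblast line differentiated into adipocytes, at passage 15, and in all 6 groups mature adipocytes had been transduced with lentivirus for 6 days. One arm held cells labelled 2D (overexpression of Irf3, plotted as Irf3_2D) and cells labelled EGFP (its control), and what 2D stands for is not stated in the labels. The other arm held cells with a hairpin against Irf3 (shIrf3) or a control hairpin (shLuc), each without LPS and with LPS (shIrf3+LPS, shLuc+LPS), where LPS was given for another 6 days, a time the labels state for the knockdown cells. Each group had 3 libraries, and no label says that they came from separate cultures, so the spread between libraries may be technical. Whether the cells without LPS were kept for the same further time is not stated, and an effect of LPS therefore cannot be told apart from one of time. The knockdown itself was not checked here by the Irf3 count, since no gene model could be paired with Irf3, and for the same reason the labelled cell type was not checked by marker genes.

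Libraries held 22143302 to 34368259 counts. Gene models on chromosome M took 14.2% of the counts in shLuc replicate 1, against at most 7.17% in the other 17 libraries. All 18 replicate pairs differed by more than sampling noise, with a chi-square of 3.38 to 349.9 per degree of freedom, and each library was counted as its own sample. Values below are in CPM, the count relative to the library total after TMM scaling over all 18 libraries. In a library of this depth 3 counts correspond to 0.0941 to 0.145 CPM, which is the limit that a count of 0 allows. As RNA came from bulk cultures, fewer cells expressing a gene and less RNA per cell cannot be told apart.

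The promoters of the named genes are shown first, because the 4 gene models moved together with LPS and their promoters can be compared letter by letter. All 4 names matched an entry of the RefSeq promoter table (build GRCm38.p6). The lines give the 250 bases before the start, 5′ to 3′ on the gene's own strand, with letters that match a searched motif in capitals.
Saa3 (chr7:46715677-46715926, minus strand): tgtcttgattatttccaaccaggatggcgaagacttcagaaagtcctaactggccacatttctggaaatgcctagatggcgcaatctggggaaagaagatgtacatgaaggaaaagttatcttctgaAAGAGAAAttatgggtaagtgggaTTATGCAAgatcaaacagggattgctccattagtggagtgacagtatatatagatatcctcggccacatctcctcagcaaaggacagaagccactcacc
Saa4 (chr7:46732604-46732853, minus strand): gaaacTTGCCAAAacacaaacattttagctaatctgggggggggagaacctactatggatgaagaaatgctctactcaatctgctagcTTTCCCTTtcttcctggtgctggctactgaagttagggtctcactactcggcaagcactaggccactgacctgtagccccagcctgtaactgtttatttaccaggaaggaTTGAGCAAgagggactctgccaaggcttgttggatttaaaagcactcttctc
Saa1 (chr7:46742981-46743230, minus strand): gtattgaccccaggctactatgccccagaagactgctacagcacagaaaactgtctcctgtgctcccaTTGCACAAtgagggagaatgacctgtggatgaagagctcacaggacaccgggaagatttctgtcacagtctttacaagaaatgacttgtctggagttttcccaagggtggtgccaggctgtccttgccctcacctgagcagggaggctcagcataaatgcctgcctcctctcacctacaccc
Saa2 (chr7:46751583-46751832, plus strand): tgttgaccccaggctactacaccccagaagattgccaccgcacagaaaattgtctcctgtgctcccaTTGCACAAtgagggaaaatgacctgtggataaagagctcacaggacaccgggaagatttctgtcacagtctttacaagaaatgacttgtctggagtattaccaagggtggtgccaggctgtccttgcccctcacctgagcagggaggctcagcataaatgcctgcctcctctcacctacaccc

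Motifs searched on both strands were GGGANTTTC and GGGANTTCC (NF-kB type), TTGCNNAA (C/EBP type), AANNGAAA (IRF type), TTCNNNGAA (STAT type) and TATAAA (core promoter box). TTGNNNCAA was also searched as C/EBP type, but it spaces TTG and CAA wider than the TTGCACAA found below. TTGNNNCAA and TTGCNNAA can overlap each other. TTGCNNAA was found before all 4 genes, and 9.56% of the 32851 RefSeq promoters of this length hold it. In Saa3 it lay at -99 to -92, on the opposite strand. Saa1 and Saa2 held the same 8 letters, TTGCACAA, at -182 to -175 and at -183 to -176. Saa4 held 2 matches, at -245 to -238 and at -52 to -45. AANNGAAA was found before Saa3 (-123 to -116) and Saa4 (-162 to -155), and 21.3% of all promoters hold it. The other 5 motifs had 0 matches in these 4 windows, which says only that those letters are not there. The Saa1 and Saa2 windows were 95.6% identical over 249 aligned bases, whereas Saa3 was 61.4% to 64.4% identical to the other 3.

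The transcripts are also alike, which bears on the counts. The GENCODE M21 transcripts Saa1-201 and Saa2-201 were identical at 94.4% of 606 aligned bases, with a longest shared run of 99 bases. Saa3-201 shared 76.0% of 492 aligned bases and a run of 58 bases with Saa1-201, and 75.1% and a run of 41 bases with Saa2-201. Saa4-201 was 66.2% to 67.7% identical to the other 3, with shared runs of 13 to 15 bases. Neither the read length nor the handling of reads that fit several places is stated in the labels. The gene models were not matched to these transcripts. How reads that fit more than one gene of the cluster were divided among the 4 counts was not tested, so the small counts beside that of uc009gyx.1 are uncertain.

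LPS was compared with no LPS in each hairpin group. Without LPS, uc009gyx.1 (Saa3) stood at 0.607, 0.731 and 0.568 CPM in shLuc replicates 1, 2 and 3 (18, 21 and 15 counts). With LPS it stood at 504.4, 419.5 and 467.4 CPM (14856, 13369 and 13833 counts). No LPS library came near any library without LPS. In the knockdown cells it was 1.07, 0.776 and 0.864 CPM without LPS and 411.3, 449.003 and 371.6 CPM with LPS, again with no overlap. Summed counts of a group were divided by its summed library sizes after TMM scaling. Their ratio was 726 in shLuc (95% exact counting interval 557 to 967) and 461 in shIrf3 (366 to 588). These intervals cover counting error only. Fitted log2 fold changes were 9.50 ± 0.14 (SE) and 8.84 ± 0.13. Over the 4 members the median was 5.77 in shLuc and 6.24 in shIrf3, against -0.01 and 0.00 over all gene models tested. This gap is no support for the response, because the cluster was chosen on it. Without shLuc replicate 1, the library with the large chromosome M share, the change in shLuc was 9.48 for Saa3, 3.45 for uc009gyy.1, 5.91 for uc009gyz.1 and 5.60 for uc009gzb.2, against 9.50, 3.01, 6.31 and 5.23 with it.

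On a per-length scale Saa3 moved from the middle of the ranked gene models, which include those with 0 counts, to the top. It stood at 772 ± 70.8 CPM per kb of exon in shLuc+LPS (SD, n = 3), which ranked 25 among the 23471 gene models with at least 200 bases of exon. In shIrf3+LPS it stood at 683 ± 64.4 CPM per kb, at rank 30. Without LPS the ranks were 10935 in shLuc and 10300 in shIrf3, at 1.06 ± 0.142 and 1.51 ± 0.255 CPM per kb. It took 0.0379% to 0.0536% of all counts in the 6 LPS libraries.

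The gene models uc009gyz.1 and uc009gzb.2, one on each strand, were almost absent without LPS and low with it. uc009gyz.1 had 1, 4 and 3 counts in the shLuc libraries and 256, 201 and 252 with LPS (8.69, 6.31 and 8.51 CPM). In the knockdown cells it had 2, 0 and 0 counts without LPS and 161, 121 and 121 with LPS (5.12, 4.65 and 5.00 CPM). The ratio of summed counts, scaled in the same way, was 82.7 in shLuc (41.7 to 192) and 202 in shIrf3 (55.5 to 1672). The wide interval in shIrf3 reflects a total of 2 counts without LPS. uc009gzb.2 had 6, 3 and 3 counts in shLuc and 172, 157 and 164 with LPS, and 3, 1 and 5 counts in shIrf3 and 118, 120 and 74 with LPS. Its scaled ratios were 38.3 (21.7 to 74.7) in shLuc and 34.7 (18.1 to 76.6) in shIrf3. For both gene models every LPS library lay above every library without LPS.

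The gene model uc009gyy.1, with the longest exon length of the 4, had the smallest LPS change. It had 11, 4 and 6 counts in shLuc and 55, 67 and 61 with LPS, which is 0.246 ± 0.117 and 2.01 ± 0.125 CPM (SD, n = 3). In the knockdown cells it had 8, 6 and 7 counts without LPS and 47, 33 and 41 with LPS, which is 0.263 ± 0.0683 and 1.49 ± 0.213 CPM. The ratios of summed counts, scaled by library size as above, were 8.13 (5.16 to 13.4) and 5.77 (3.61 to 9.66). The groups did not overlap in either case. Over all gene models tested, 10.2% in shLuc and 16.8% in shIrf3 were higher with LPS without overlap, and 4.27% and 4.17% were called higher. Nothing is read from these shares, since the LPS response led to the choice of this cluster.

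**Figure D1:**
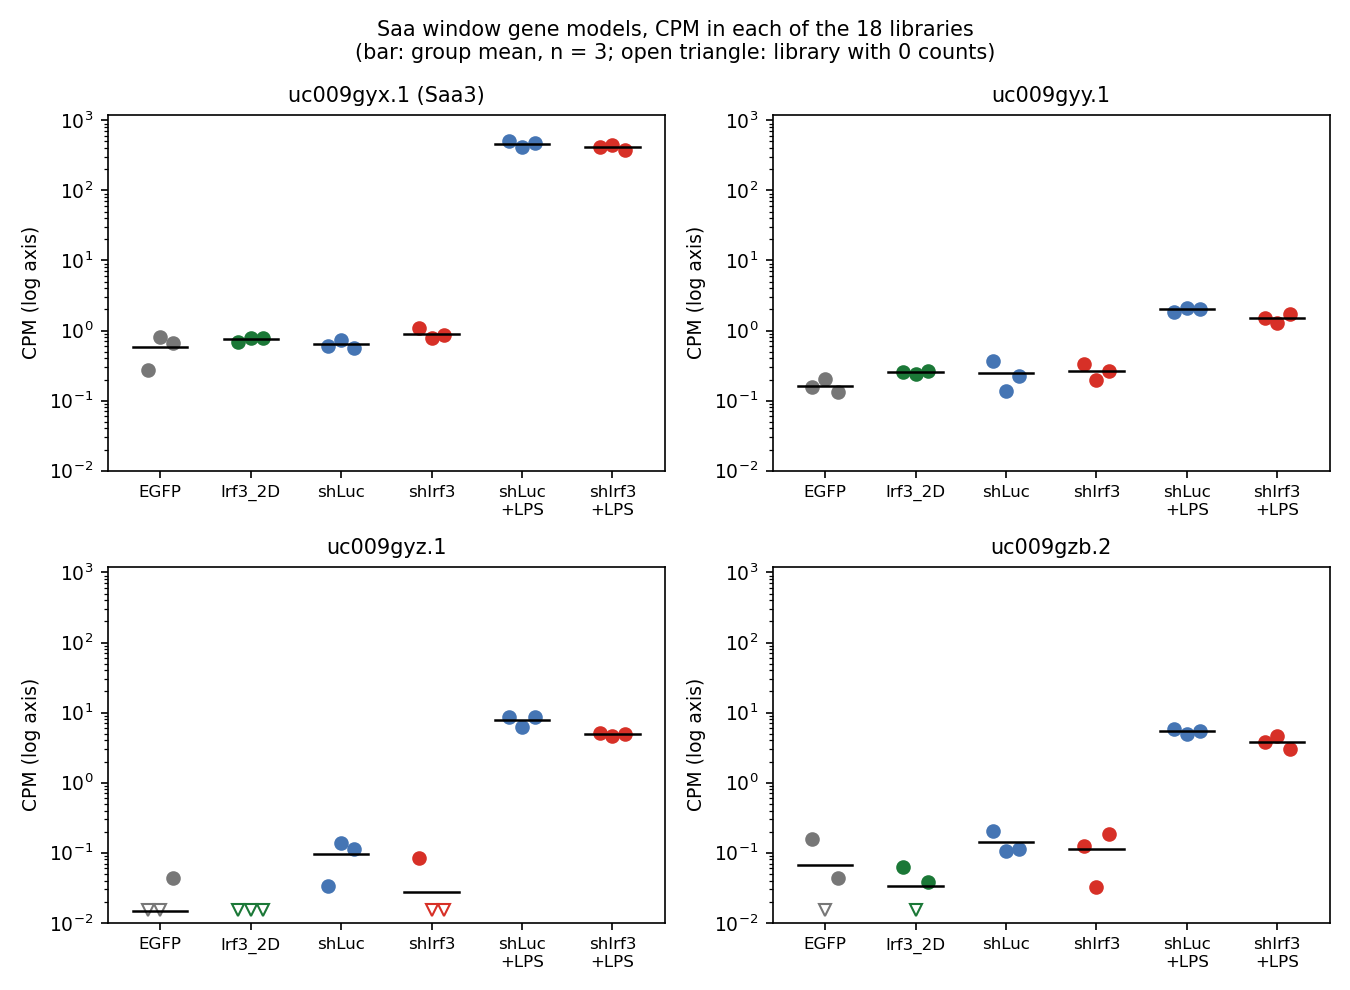
CPM of the 4 gene models in each of the 18 libraries, on a log axis, with the group mean as a bar (n = 3) and libraries with 0 counts as open triangles. All 4 were higher in every LPS library than in any library without LPS, and uc009gyx.1 (Saa3) reached 372 to 504 CPM.

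Per length, the cluster was dominated by Saa3 in every LPS library. Saa3 held 97.1% ± 0.145 of the summed CPM per kb of the cluster in shLuc+LPS and 97.8% ± 0.0771 in shIrf3+LPS (SD, n = 3). The next was uc009gyz.1, at 12.8 ± 2.18 and 8.07 ± 0.400 CPM per kb, followed by uc009gzb.2, at 8.91 ± 0.764 and 6.24 ± 1.28, and uc009gyy.1, at 0.989 ± 0.0617 and 0.731 ± 0.105. The ranges of uc009gyz.1 and uc009gzb.2 did not overlap in either LPS group. Without LPS, Saa3 held 67.4% ± 4.29 of the summed CPM per kb in shLuc, 81.5% ± 7.14 in shIrf3, 87.5% ± 4.01 in 2D and 78.3% ± 18.4 in EGFP, from 15 to 39 counts per library for the whole cluster.

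Ordered by mean CPM, the 6 groups had the same top places for all 4 gene models, shLuc+LPS first and shIrf3+LPS second. For Saa3 those groups overlapped, and for the other 3 they did not. Below them Saa3 stood at 0.905 ± 0.153 CPM in shIrf3, 0.753 ± 0.0525 in 2D, 0.635 ± 0.0853 in shLuc and 0.580 ± 0.272 in EGFP (SD, n = 3). Each of these 4 overlapped the next. uc009gyy.1 lay between 0.164 and 0.263 CPM in the 4 groups without LPS, each again overlapping the next in the order. uc009gyz.1 was at 0.0955 ± 0.0550 CPM in shLuc and at 0 counts in all 3 2D libraries, and uc009gzb.2 ran from 0.14 ± 0.0540 CPM in shLuc to 0.0336 ± 0.0317 in 2D. Levels across the 2 arms are set side by side only, since vector and arm differ together.

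The next comparison asks whether lowering Irf3 changed the cluster in LPS-treated cells. Its libraries are among those whose LPS response led to the choice, and earlier results were known, so the test is not independent. All 4 gene models were lower in shIrf3+LPS than in shLuc+LPS, and 1 of them passed the test. uc009gyz.1 fell from 7.84 ± 1.33 to 4.93 ± 0.244 CPM (SD, n = 3), and its groups did not overlap (log2 fold change -0.68 ± 0.18 SE, edgeR adjusted p = 0.0253). uc009gzb.2 was at 5.44 ± 0.466 CPM in shLuc+LPS and 3.81 ± 0.779 in shIrf3+LPS, also without overlap (log2 fold change -0.52 ± 0.18, edgeR adjusted p = 0.0906). uc009gyy.1 was at 2.01 ± 0.125 and 1.49 ± 0.213 CPM without overlap (-0.45 ± 0.21, edgeR adjusted p = 0.229). Saa3 was at 464 ± 42.6 and 411 ± 38.7 CPM, and its groups overlapped, since shIrf3+LPS replicate 2 (449.003 CPM) lay above shLuc+LPS replicate 2 (419.5 CPM). Its log2 fold change was -0.18 ± 0.08 (95% interval -0.36 to -0.01, edgeR adjusted p = 0.203).

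Against these members, 3.31% of the 14970 gene models tested were called lower in this comparison and 8.2% in either direction. Groups lay apart in the lower direction for 3 of 4 members and for 16.1% of all gene models tested. The median log2 fold change was -0.48 over the 4 members and 0.00122 over all gene models tested. All 4 members had an unadjusted p under 0.05, as did 21.5% of all gene models tested. The call of uc009gyz.1 ended without shLuc+LPS replicate 1 or 3, without any one of the shIrf3+LPS libraries and with all 18 libraries in one fit, with log2 fold changes from -0.71 to -0.58 and edgeR adjusted p from 0.0803 to 0.126. Whether reads shared between genes of the cluster take part in its difference was not tested.

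Counts relative to Saa3, which do not depend on the scaling of libraries, were compared between the LPS groups. In shLuc+LPS there were 17.2, 15.0 and 18.2 counts of uc009gyz.1 per 1000 counts of Saa3, and 12.5, 10.4 and 13.5 in shIrf3+LPS. For uc009gzb.2 the values were 11.6, 11.7 and 11.9 against 9.13, 10.3 and 8.23. The groups did not overlap for either gene model, and the exact two-sided permutation test gave p = 0.1 for each, the smallest that 3 against 3 libraries allow (0.15 after Benjamini-Hochberg adjustment over 3 ratios). Of the 14969 gene models of this fit other than Saa3, taken relative to Saa3 in the same way, 1.96% lay lower without overlap. Saa3 itself had the lower mean in shIrf3+LPS (411 against 464 CPM), which moves ratios to it upwards there. This share is therefore smaller than the 16.1% found for CPM, and no enrichment is read from it. For uc009gyy.1 the values overlapped, at 4.37 ± 0.655 and 3.67 ± 0.867 (SD, n = 3, exact permutation p = 0.4).

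**Figure D2:**
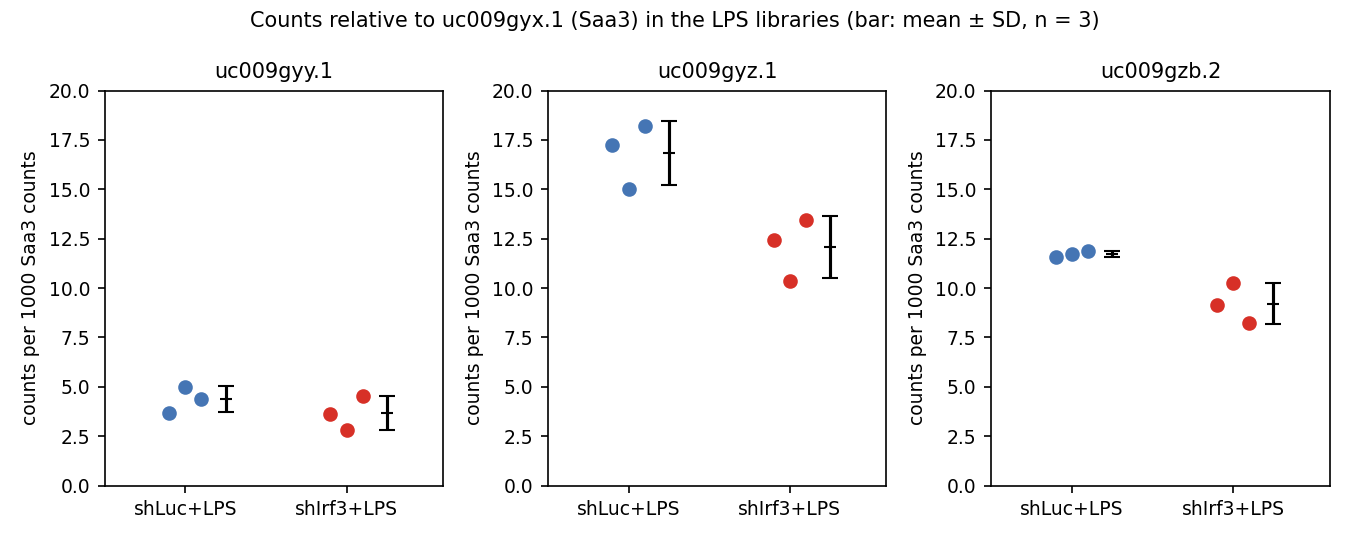
Counts of the other 3 gene models per 1000 counts of uc009gyx.1 (Saa3) in the 6 LPS libraries, with the mean and SD beside the points (n = 3). The libraries of uc009gyz.1 and uc009gzb.2 lay lower in shIrf3+LPS without overlap, and those of uc009gyy.1 overlapped.

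Without LPS, knockdown of Irf3 was compared with shLuc at counts near the limit of detection. These libraries are also part of the LPS comparisons behind the choice, so this test is not independent either. Saa3 was not called by edgeR, DESeq2 or limma-voom, and edgeR called 8.56% of all gene models tested. Saa3 had 26, 24 and 23 counts in shIrf3 and 18, 21 and 15 in shLuc. Its CPM values did not overlap, at 0.776 or more in shIrf3 and 0.731 or less in shLuc, and 13% of all gene models tested were higher in shIrf3 without overlap. The log2 fold change was 0.48 ± 0.24 (95% interval -0.02 to 0.98, edgeR adjusted p = 0.246), 0.20 with the counts of all 4 gene models summed, and 0.45 without shLuc replicate 1 (edgeR adjusted p = 0.337). A summed 2 counts of uc009gyz.1 in shIrf3 stood against 8 in shLuc. Scaled by library size, the ratio was 0.259 (95% counting interval 0.0268 to 1.30). The summed counts of uc009gzb.2 were 9 and 12, and those of uc009gyy.1 were 21 and 21. These 3 gene models passed the count filter of this arm through its LPS libraries and fell below it when the 6 libraries compared were fitted alone, so no count of calls is given over them.

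Whether the size of the LPS response depended on the hairpin was tested as an interaction. The interval was chosen on the LPS response in these same libraries, so this test is not independent. The LPS change of Saa3 was smaller in shIrf3 than in shLuc by 0.66 on the log2 scale (difference -0.66 ± 0.25, 95% interval -1.20 to -0.13), with an unadjusted p of 0.0175 and an edgeR adjusted p of 0.782. It is made up of the -0.18 between hairpins with LPS less the 0.48 without LPS. With the counts of all 4 gene models summed, the difference was -0.39. The other 3, which rest on totals of 2 to 21 counts per group without LPS, are given as values only. They were -0.50 ± 0.47 for uc009gyy.1 (-0.94 to -0.19 with 1 library left out at a time), 1.10 ± 0.96 for uc009gyz.1 (0.50 without shIrf3 replicate 2 and 3.83 without shIrf3 replicate 1) and -0.16 ± 0.72 for uc009gzb.2. edgeR called 0% of the 14970 gene models tested, of which 848 (5.66%) had an unadjusted p under 0.05. DESeq2 called 15 of them and limma-voom 0, and Saa3 was called by neither.

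Overexpression of Irf3 was compared with EGFP, in libraries that are not part of the LPS comparisons, though earlier results of these data were known. Only Saa3 passed the count filter of this arm. It had 22, 16 and 21 counts in 2D and 7, 24 and 15 in EGFP, which is 0.753 ± 0.0525 and 0.580 ± 0.272 CPM (SD, n = 3). The 2D libraries lay within the range of the EGFP libraries. The log2 fold change was 0.34 ± 0.39 (95% interval -0.54 to 1.21, edgeR adjusted p = 0.886), and 0.01 without EGFP replicate 1, the library with 7 counts. edgeR called 0 of 1 member tested (0 at an unadjusted p under 0.05), against 1.45% of all gene models tested (10.9% unadjusted), and DESeq2 and limma-voom called 0. uc009gyy.1 had 8, 5 and 7 counts in 2D and 4, 6 and 3 in EGFP, and its CPM values did not overlap, though its counts did. Of the gene models tested, which do not include uc009gyy.1, 9.48% were higher in 2D without overlap. uc009gyz.1 had 0 counts over the 3 2D libraries and 1 over the EGFP libraries, and uc009gzb.2 had 3 and 5.

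**Figure D3:**
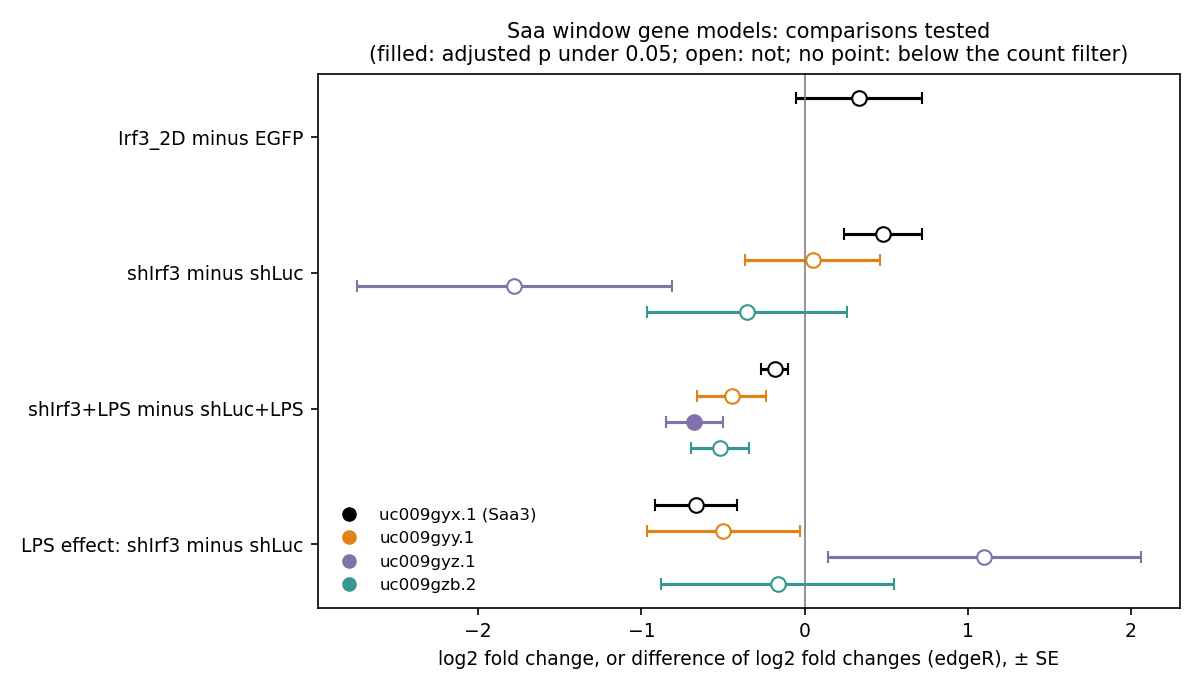
Log2 fold changes (± SE, edgeR) in the 3 tested pairs of groups and the difference of the LPS effects, for the 4 gene models except in overexpression, where only uc009gyx.1 passed the count filter. The filled point, uc009gyz.1 in shIrf3+LPS minus shLuc+LPS at -0.68, has an adjusted p under 0.05. In shIrf3 minus shLuc and in the difference of the LPS effects, only the uc009gyx.1 point is read as a test. The points of the other gene models there rest on few counts without LPS and are values only, so their open symbols are not results.

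The flanking genes were tested in the same comparisons. Of the 21 other gene models within 500 kb of either edge of the interval, 12 passed the count filter of the knockdown and LPS arm. In shLuc, 2 of these were higher and 1 lower with LPS (edgeR adjusted p under 0.05, against 8.72% of all gene models tested), with log2 fold changes from -0.72 to 0.56. In shIrf3, 3 were higher and 1 lower (against 8.01%), from -0.52 to 0.51. The nearest one passing the filter on the Saa3 side was uc009gyt.2 (53941478 to 53966021, minus strand), 1346 bases from Saa3, and it rose from 16.6 to 20.8 CPM in shLuc (log2 fold change 0.33 ± 0.07, edgeR adjusted p = 0.00911) and from 16.2 to 19.7 in shIrf3 (0.29 ± 0.08, edgeR adjusted p = 0.0270). On the other side uc009gzi.1 (54015836 to 54051369, minus strand), 6151 bases from uc009gzb.2, rose from 72.0 to 105.6 CPM in shLuc (0.56 ± 0.06, edgeR adjusted p = 6.31e-06) and from 77.8 to 104.9 in shIrf3 (0.43 ± 0.06, edgeR adjusted p = 0.000109). For knockdown without and with LPS and the interaction, edgeR called 0 of the neighbours, against 8.56%, 8.2% and 0% of all gene models tested. In overexpression, where 10 neighbours passed the filter, edgeR called 0, against 1.45%. At an unadjusted edgeR p under 0.05 there were 2, 0, 0 and 2, in that order. Over all gene models tested, such a p was held by 21.5% for knockdown with LPS, 5.66% for the interaction and 10.9% for overexpression. That share is not given for knockdown without LPS. DESeq2 called 1 neighbour for knockdown, among 1565 gene models over the whole table, and 1 for overexpression, among 481.

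**Figure D4:**
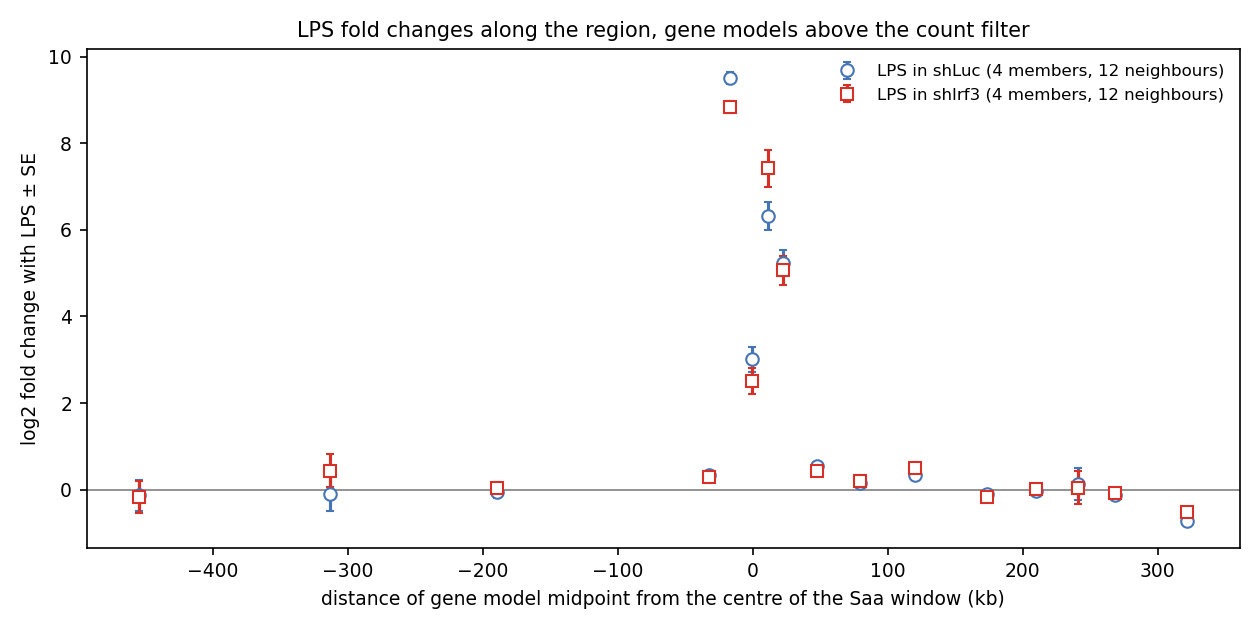
Fitted log2 fold change with LPS (± SE) of the 4 members and the 12 neighbours above the count filter, by distance from the centre of the interval in kb, for shLuc and shIrf3. The interval was chosen on the members' values, which lie between 2.51 and 9.50, the neighbours lie between -0.72 and 0.56, and the uc009gyz.1 point in shIrf3 rests on 2 counts without LPS.

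The gene models whose log2 CPM over the 12 libraries of the knockdown and LPS arm followed Saa3 most closely were uc009bvw.1 on chromosome 6 (48791482 to 48795857, 8 exons) and uc008deg.1 on chromosome 17 (57343396 to 57367559, 41 exons), with Pearson's r of 0.998 and 0.997. The likeness is of pattern, not of size. uc009bvw.1 went from 48.4 ± 0.746 to 149.4 ± 6.91 CPM with LPS in shLuc, and uc008deg.1 from 118 ± 13.3 to 2523 ± 35.1 (SD, n = 3). The most opposite were uc007yhd.2 on chromosome 16 (14194620 to 14291501) and uc007pje.1 on chromosome 13 (3881809 to 3917466), with r of -0.985 and -0.984. The former was at 23.7 ± 0.885 CPM in shLuc and 10.9 ± 0.928 in shLuc+LPS. Within the cluster, r with Saa3 was 0.986 for uc009gzb.2, 0.983 for uc009gyz.1 and 0.971 for uc009gyy.1. These 12 libraries fall into 6 with and 6 without LPS, so r mostly reflects that split, and over all 18 libraries 0 of the 4 gene models at the extremes were the same.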

How the data were processed

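The 18 RNA-seq libraries were put in 6 groups of 3 by their titles. They were prepared from 70 ng of total RNA after ribosomal RNA depletion, per the labels' protocols, with a TruSeq RNA v2 kit (no strand information). The tools named are TopHat2 2.0.14, featureCounts 1.4.6, SAMtools 0.1.19, Picard 2.2.4, bcl2fastq 2.17.1.14 and edgeR, with build mm9, per the submitters' processing notes, and their settings are not given in the sources. The authors deposited raw, unnormalized counts for each gene model, with exon lengths per the file headers.

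Counts were tested with edgeR 4.0.16 in R 4.3.3 (filterByExpr, TMM, robust glmQLFit, glmQLFTest, Benjamini-Hochberg adjustment over all gene models tested, threshold 0.05). The overexpression arm was fitted from 6 libraries and the knockdown and LPS arm from 12. SE was taken as |log2 fold change|/√F. The likeness to Saa3 used log2 CPM with a prior count of 2. Ratios of summed counts were scaled by the summed library sizes after TMM, and their counting intervals are exact binomial at 95%. The fitting script was also run on simulated counts with known fold changes, and the outcome is not reported here. The alternatives tried were other scalings, filters and sets of libraries, the replicate number as a block, and the tools DESeq2 1.42.0 and limma 3.58.1 (voom).

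The members, lists, motifs and tests were chosen with earlier results of these data known. Named outside the cluster are the 2 gene models most and the 2 least correlated with Saa3, and the nearest neighbour tested on each side. The lists of acute phase genes and of cell type markers need symbols and were not used. Sequences are from RefSeq and GENCODE M21 on GRCm38, aligned with Biopython 1.88, and no coordinates were converted to mm9.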

Additional observations from a re-analysis of the deposited data

How the results depend on the processing

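Fold changes of Saa3 kept their direction under every alternative run, and those of the 4 tested comparisons stayed uncalled. Summing the counts of the 4 gene models moved the log2 fold change with LPS from 9.50 to 8.74 in shLuc and from 8.84 to 8.35 in shIrf3, that of knockdown from 0.48 to 0.20 and the interaction from -0.66 to -0.39. Leaving out 1 library at a time gave 9.43 to 9.61 and 8.73 to 8.97 for these, -0.26 to -0.10 for knockdown with LPS, 0.35 to 0.59 for knockdown, -0.77 to -0.53 for the interaction and 0.01 to 0.67 for overexpression. Adjusted p values for Saa3 ran from 0.103 to 0.591, 0.227 to 0.636, 0.341 upwards and 0.604 to 0.999 over the alternatives of those 4 comparisons. For uc009gyz.1 in knockdown with LPS, leaving out 1 library gave -0.81 to -0.58, and the adjusted p ran from 0.00177 to 0.126 over all alternatives. The fold change of uc009gzb.2 in that comparison passed the threshold only when the 6 libraries compared were fitted alone (-0.52, edgeR adjusted p = 0.0200). Signs changed only among low counts without a call: leaving out 1 library gave -0.24 to 0.50 for uc009gyy.1 and -0.93 to 0.14 for uc009gzb.2 in knockdown, and -0.66 to 0.41 for uc009gzb.2 in the interaction. The LPS change of uc009gyz.1 in shIrf3, which rests on 2 counts without LPS, ran from 6.82 to 10.1, and that of uc009gzb.2 in shLuc from 5.04 to 5.60. The cause of these changes was not tested, apart from fewer libraries being fitted.

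The number of gene models called over the whole table moved more: 202 for overexpression (5 to 1021), 1281 for knockdown (386 to 2744), 1228 for knockdown with LPS (378 to 2848), 1305 for LPS in shLuc (668 to 2132), 1199 for LPS in shIrf3 (621 to 2890) and 0 for the interaction (0 to 16). With library totals as the only scaling, 704 were higher and 345 lower for knockdown (against 696 and 585), 823 and 321 for LPS in shLuc (against 639 and 666), and 592 and 313 for LPS in shIrf3 (against 624 and 575). Neighbours called with LPS in shIrf3 were 1 with all 18 libraries in one fit and 2 without shIrf3 replicate 2, against 4, and in shLuc 5 without shLuc replicate 2, against 3.

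Same-numbered libraries deviated together (r over 0.1) in 1 of 3 pairs of the overexpression arm and 1 of 18 of the other. In these arms 2 of 6 and 6 of 12 libraries correlated best with one of their own number. No chance rate was set for these values, so they do not decide whether replicate numbers pair the libraries. With the replicate number as a block, Saa3 stood at 0.42 for overexpression, 0.48 for knockdown, -0.18 for knockdown with LPS, -0.67 for the interaction, 9.51 for LPS in shLuc and 8.84 for LPS in shIrf3. The block gave 236, 1392, 1311, 0, 1347 and 1297 calls over the table, and it changed no call of a member.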
